A study of Mus musculus with 6 samples.

Results

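The 9 genes described here encode subunits of the transcription factor NF-kappaB and proteins that regulate it. They were chosen by symbol (Nfkb1, Nfkb2, Rela, Relb, Nfkbia, Nfkbiz, Tnfaip3, Tnip1 and Birc3), and all 9 were found among the 14437 genes of the deposited table, whatever their values. The table holds RNA-seq of endothelial cells from the cerebellum of C57BL6 mice on postnatal day 9, with 3 libraries of wild-type mice and 3 of mice with the genotype label Ccm3 knock-out. Ccm3, also named Pdcd10, encodes a scaffold protein whose loss in endothelium causes cerebral cavernous malformations, clusters of dilated and leaky brain vessels. The cells were separated from the dissociated tissue with magnetic beads against CD45, a leukocyte antigen, and CD31, an antigen of endothelium and platelets. The descriptions give each library 1 numbered mouse, and no treatment is named for either group. The sources used here do not say which bases of Ccm3 were deleted, which Cre driver or inducing agent was used, or in which cells and from what age the gene was lost. The comparison of the groups asks how the expression of these genes differs between endothelium with and without an intact Ccm3 gene.

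Libraries held between 11075769 and 21142333 reads in genes, and the 9 genes lay between 169 and 3799 normalised reads, far above the 1.96 to 3.41 that 3 reads stand for in these libraries. Pdcd10 was at 522 to 689 normalised reads in the wild-type and 154 to 309 in the knock-out libraries, a fold of 0.39 (95% interval 0.26 to 0.57, adjusted p = 0.0162). Leaving out wild-type 1, 2 or 3 raised its adjusted p to 0.0511, 0.0605 and 0.0619. All 10 endothelial markers looked for were found and none was called. Pecam1 was higher in every knock-out library than in any wild-type library (fold 1.33). Cldn5, Kdr and Erg were lower in every knock-out library (folds of 0.77, 0.76 and 0.90). The summed level of the 10, to which Flt1 and Kdr gave the most, was 142360 to 160700 in the wild-type and 126190 to 153760 in the knock-out. The libraries differ in the sex-linked genes. The summed level of 4 Y-linked genes was 1.49 in wild-type 1 and between 813 and 4017 in the other 5 libraries. Xist, the RNA of the inactive X chromosome of females, was at 5.34 in wild-type 2 and 41.5 in knock-out 1 but at 10856, 9398 and 7802 in wild-type 3, knock-out 2 and knock-out 3. Wild-type 3, knock-out 2 and knock-out 3 thus held transcripts of both kinds, which goes against their description as 1 mouse each, and results are given below without each library in turn where a call changes.

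NF-kappaB is a family of dimers. Nfkb1 and Nfkb2 encode precursors that are processed to p50 and p52, and Rela and Relb encode partners that activate transcription. In the canonical route, signals from TNF, interleukin-1 or Toll-like receptors activate a kinase complex that marks the inhibitor IkappaB alpha (Nfkbia) for destruction and frees dimers of p50 and RelA, while the non-canonical route processes p100 to p52, which acts with RelB. Many genes of the pathway are themselves targets of NF-kappaB, among them its inhibitors, so that the response limits itself. In endothelium the pathway is known for inducing leukocyte adhesion molecules. The 9 proteins do not all act as brakes: IkappaB zeta (Nfkbiz) is a nuclear protein needed for the induction of some targets in mouse macrophages, and cIAP2 (Birc3) is a ubiquitin ligase that promotes canonical signalling by TNF receptors and restrains the non-canonical kinase NIK.

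Promoter sequences are shown for 4 of the genes because many genes of the pathway are known targets of NF-kappaB, and because these 4 hold the letters of its binding motif. RefSeq windows of GRCm38.p6, from 250 bases before a start to 50 after it, were found for 6 of the 9 genes. They were searched on both strands for the kappaB consensus, a motif of 10 letters, and overlapping matches were counted. Of these 6 genes, 4 held a match in at least 1 window (Nfkb2, Nfkbia, Tnfaip3 and Tnip1), and Rela and Birc3 held none. Among 10406 tested genes with windows, 12.4% held a match. The 250 bases before the first listed RefSeq start are printed from 5′ to 3′ on the strand of the gene, with matches in capitals. In the GENCODE M21 annotation, Nfkb2 and Tnfaip3 begin further upstream, at 46304320 and 19015657. All printed bases of Nfkb2 and nearly all of those of Tnfaip3 thus lie inside the annotated gene. Distances below are from the RefSeq start.
Nfkb2 (chr19:46304487-46304736, plus strand): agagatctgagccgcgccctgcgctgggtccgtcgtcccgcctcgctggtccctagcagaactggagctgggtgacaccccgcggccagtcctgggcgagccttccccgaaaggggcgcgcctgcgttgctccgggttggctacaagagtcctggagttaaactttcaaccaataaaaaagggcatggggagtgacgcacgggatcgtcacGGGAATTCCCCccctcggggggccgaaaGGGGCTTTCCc
Nfkbia (chr12:55492648-55492897, minus strand): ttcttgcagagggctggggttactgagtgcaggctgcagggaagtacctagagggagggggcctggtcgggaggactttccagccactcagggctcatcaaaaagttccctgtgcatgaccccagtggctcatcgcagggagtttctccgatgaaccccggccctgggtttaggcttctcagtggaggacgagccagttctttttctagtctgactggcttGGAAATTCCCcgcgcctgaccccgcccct
Tnfaip3 (chr10:19015411-19015660, minus strand): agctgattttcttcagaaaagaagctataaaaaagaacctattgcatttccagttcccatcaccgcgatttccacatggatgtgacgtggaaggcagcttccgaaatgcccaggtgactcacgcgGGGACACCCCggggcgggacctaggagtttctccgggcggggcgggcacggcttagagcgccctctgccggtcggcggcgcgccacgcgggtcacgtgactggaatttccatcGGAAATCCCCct
Tnip1 (chr11:54962941-54963190, minus strand): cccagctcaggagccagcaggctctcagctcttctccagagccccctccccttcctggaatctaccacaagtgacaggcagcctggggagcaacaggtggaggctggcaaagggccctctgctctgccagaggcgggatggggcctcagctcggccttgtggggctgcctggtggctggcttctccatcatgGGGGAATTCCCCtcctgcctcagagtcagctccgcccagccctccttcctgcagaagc
In Nfkb2 the matches lay from 39 to 29 bases (an overlapping pair) and from 11 to 2 bases before the start, and a later start of the gene had GGGACTTTCC from 10 to 19 bases after it. In Nfkbia a match lay 29 to 20 bases before the start. Tnfaip3 had matches at 125 to 116 and 12 to 3 bases, and Tnip1 had 3 overlapping matches, within 12 bases, at 58 to 47 bases. A match of letters is a description of the window and does not show that a factor binds there.

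Most of these genes were higher in the knock-out. Of the 9, 6 rose (Tnfaip3, Nfkbiz, Relb, Nfkb2, Tnip1 and Birc3, folds of 1.50 to 2.22), none fell, and Nfkbia, Rela and Nfkb1 were not called. Of all 14076 genes tested, 3.6% rose and 2.64% fell, 6.24% in either direction. In 7 of the 9, every knock-out library lay above every wild-type library, against 12.8% of all genes tested that were apart in this direction. The median log2 change of the 9 genes was 0.73, beside -0.01 for all genes tested, and single genes ranged from 0.01 for Nfkb1 to 1.15 for Tnfaip3. By library, the median member lay 0.76, 0.81 and 0.59 above the wild-type mean on the log2 scale in knock-out 1, 2 and 3, and between -0.03 and 0.08 from it in the wild-type libraries. The number of members that rose was 3 when wild-type 1, 2 or 3 was left out and 2 when knock-out 2 was, and it stayed at 6 without knock-out 1 or 3. A fit that adjusts for the Y-linked level gave 4.

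**Figure D1:**
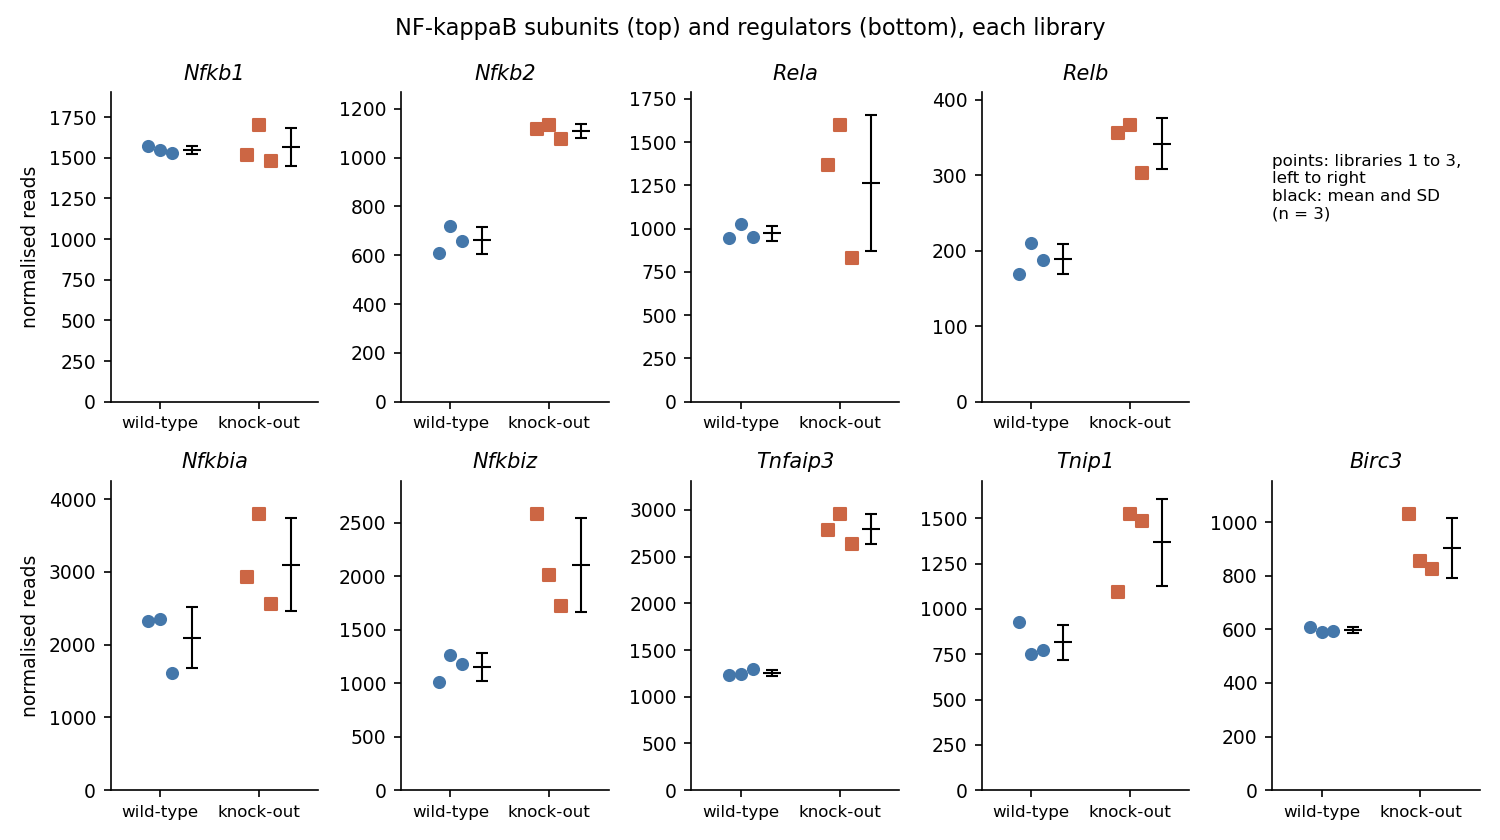
Normalised reads (y axis, from 0) of the 4 subunit genes in the top row and the 5 regulators in the bottom row, by genotype (x axis), with points for libraries 1 to 3 of each group from left to right and the mean with SD (n = 3) in black. In 7 panels every knock-out library is above every wild-type library, and in those of Nfkb1 and Rela the groups overlap.

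Among the subunits, the precursor of the non-canonical route and its partner rose. Nfkb2 (ENSMUSG00000025225, chromosome 19, 46304320 to 46312385 of GRCm38), which encodes p100, had 607, 718 and 659 normalised reads in the wild-type libraries 1 to 3 and 1115.5, 1132 and 1077 in the knock-out libraries 1 to 3. The groups were well apart, with little spread in the knock-out. The means were 662 ± 55.5 and 1108 ± 28.2 (SD, n = 3), a rise of 1.68-fold (95% interval 1.44 to 1.96, adjusted p = 0.00471) that was called in all 6 fits leaving out 1 library. On the opposite strand the exons of Nfkb2 share 299 bases with Psd and 531 with AC114539.1, and the sources used here do not say how the counting treated strand. Psd itself was at 14.1 to 61.3. Relb (ENSMUSG00000002983, chromosome 7, 19606217 to 19629438), the activating partner of p52, had 169, 209.6 and 188 reads in the wild-type and 355, 366 and 303 in the knock-out. Its lowest knock-out library lay well above its highest wild-type library. It rose 1.80-fold (1.44 to 2.26, adjusted p = 0.0119), and leaving out wild-type 1 or knock-out 2 gave adjusted p = 0.0571 and 0.0525.

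The canonical subunits were not called. Nfkb1 (ENSMUSG00000028163, chromosome 3, 135584655 to 135691547), the precursor of p50, had 1574, 1547 and 1527 normalised reads in the wild-type and 1519, 1701 and 1483 in the knock-out, so that the groups overlapped. Its fold was 1.01, and the 95% interval of 0.88 to 1.16 holds the sizes of change that these libraries allow (adjusted p = 0.961). Leaving out 1 library at a time moved it between 0.969 and 1.04, on both sides of 1. Rela (ENSMUSG00000024927, chromosome 19, 5637483 to 5648130), which encodes the main activating subunit, had 944, 1024 and 949.8 in the wild-type and 1368, 1598 and 831 in the knock-out. Knock-out 1 and 2 were higher than every wild-type library and knock-out 3 was lower than all of them. The fold of Rela was 1.26 (0.89 to 1.77, adjusted p = 0.487). Without knock-out 3, the library of lowest depth, it was 1.52 and passed the test (adjusted p = 0.0179). Without knock-out 2 it was 1.10 (adjusted p = 0.778), and without knock-out 1 it was 1.19 (0.641). The value thus depends on which single knock-out library is left out. The ratio of Nfkb2 to Nfkb1 reads was 0.39, 0.46 and 0.43 in the wild-type libraries and 0.73, 0.67 and 0.73 in the knock-out libraries, and the groups were apart. With Nfkb1 at a fold of 1.01, this ratio restates the rise of Nfkb2. The ratio of Relb to Rela was 0.18 to 0.20 in the wild-type and 0.23 to 0.36 in the knock-out, with the highest value in knock-out 3, where Rela was low. For Nfkbia to Rela the groups overlapped, at 1.69 to 2.46 in the wild-type and 2.14 to 3.08 in the knock-out.

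The IkappaB proteins differed in how clearly they were separated. Nfkbia (ENSMUSG00000021025, chromosome 12, 55489410 to 55492647), which encodes IkappaB alpha, the inhibitor that holds dimers in the cytoplasm, had 2322, 2349.5 and 1609 normalised reads in the wild-type. It had 2931, 3799 and 2556.5 in the knock-out, above every wild-type library, but libraries of each group varied widely. Its mean was 2093 ± 419.8 in the wild-type and 3095.5 ± 638 in the knock-out (SD, n = 3). The fold of 1.48 (1.10 to 2.00) did not pass the test (adjusted p = 0.145). It was called with the replicate number as a block (adjusted p = 0.0344) and with DESeq2 (0.0321), and its adjusted p was 0.0852 to 0.326 in the 6 fits leaving out 1 library. Nfkbiz (ENSMUSG00000035356, chromosome 16, 55811375 to 55838899) had 1007, 1266 and 1180.1 reads in the wild-type and 2585, 2014 and 1723 in the knock-out. All 3 knock-out libraries were higher, knock-out 1 the most. It rose 1.81-fold (1.41 to 2.33, adjusted p = 0.0185). Nfkbiz missed the limit when wild-type 1, 2 or 3 or knock-out 2 was left out (adjusted p = 0.0742, 0.0577, 0.0575 and 0.063), with folds of 1.70 to 1.91, and when the fit was adjusted for the Y-linked level (0.0526).

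The regulators that act through ubiquitin rose, and Tnfaip3 rose most of all 9 genes. Tnfaip3 (ENSMUSG00000019850, chromosome 10, 19000910 to 19015657) encodes A20, an enzyme that edits ubiquitin chains on signalling proteins and ends the response to TNF. It had 1230.4, 1247.5 and 1293 normalised reads in the wild-type and 2788, 2961 and 2635 in the knock-out. Libraries of a group differed little and the groups were far apart. The rise of 2.22-fold (1.94 to 2.55, adjusted p = 0.00104) was called in each of 19 alternative fits, with folds of 2.16 to 2.28 leaving out 1 library. Tnip1 (ENSMUSG00000020400, chromosome 11, 54910785 to 54962917) encodes ABIN1, which binds A20 and ubiquitin chains. It had 927, 751 and 772 in the wild-type and 1092, 1526 and 1488 in the knock-out, where knock-out 1 was the lowest, close to wild-type 1. It rose 1.66-fold (1.31 to 2.12, adjusted p = 0.0285). When wild-type 2 or 3 or knock-out 2 or 3 was left out, the adjusted p of Tnip1 was 0.134, 0.0978, 0.0974 and 0.0604. Birc3 (ENSMUSG00000032000, chromosome 9, 7848699 to 7873186) had 610.35, 591 and 593 in the wild-type and 1032, 854 and 825 in the knock-out. The wild-type libraries were nearly equal and all 3 knock-out libraries were higher. Its rise was 1.50-fold (1.26 to 1.79, adjusted p = 0.0204), and leaving out wild-type 1, 2 or 3 or knock-out 2 gave adjusted p = 0.075, 0.106, 0.0755 and 0.0524, and adjusting for the Y-linked level 0.0668. Its paralogue Birc2, which encodes cIAP1, was at 533 to 573 in the wild-type and 514 to 627 in the knock-out (fold 1.04, adjusted p = 0.837), and reads that fit either gene could have been counted for the other.

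**Figure D2:**
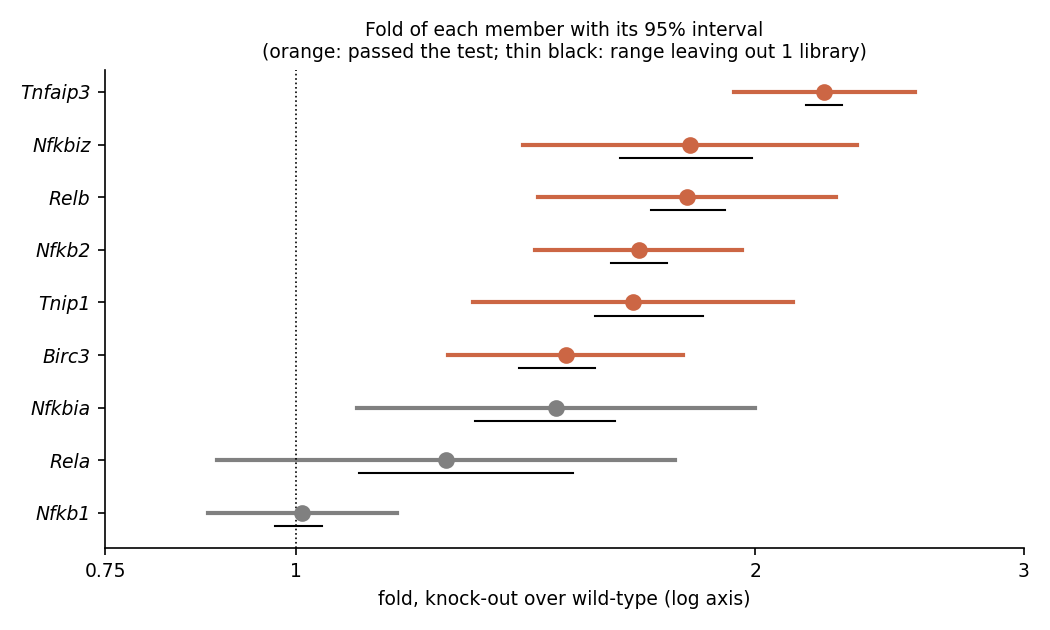
Fold of each member, knock-out over wild-type, on a log axis (x), from the limma fit of 3 against 3 libraries, with the 95% interval as a thick bar and the range over 6 fits leaving out 1 library as a thin black line. The 6 genes in orange passed the test, from Tnfaip3 at 2.22 to Birc3 at 1.50, and the interval of Nfkb1 is centred close to 1.

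Levels of different genes were compared per kilobase of exon, counting every annotated exon in GENCODE M21, which understates genes with exons that these cells do not use. On this scale Nfkbia was the most abundant in both groups, at 1300.3 ± 261 normalised reads per kilobase in the wild-type and 1923 ± 396 in the knock-out (SD, n = 3), above 98.3% and 99.0% of the genes tested. In the wild-type it was followed by Rela (317 ± 14.5), Tnip1 (231 ± 27.2), Nfkbiz (229 ± 26.3), Tnfaip3 (174 ± 4.47), Nfkb2 (144 ± 12.1), Nfkb1 (128 ± 1.97), Birc3 (119 ± 2.09) and Relb (48.6 ± 5.19). Of the neighbours in this order, Tnip1 and Nfkbiz overlapped over the libraries and the other pairs did not. In the knock-out the level of Tnfaip3 was 387 ± 22.6, and the libraries of Nfkbiz and Rela, of Rela and Tnip1, and of Tnip1 and Tnfaip3 overlapped. Tnfaip3 went from above 79.0% of the genes tested to above 91.8%. Birc3 stood below Nfkb1 in the wild-type and above it in the knock-out, at 180.4 ± 22.3 against 130 ± 9.70 per kilobase. The place of Nfkb1 in both orders depends on its annotated exon of 12.1 kilobases, the longest of the 9, against 5.01 for Birc3. Relb remained the lowest of the 9 at 87.9 ± 8.69.

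**Figure D3:**
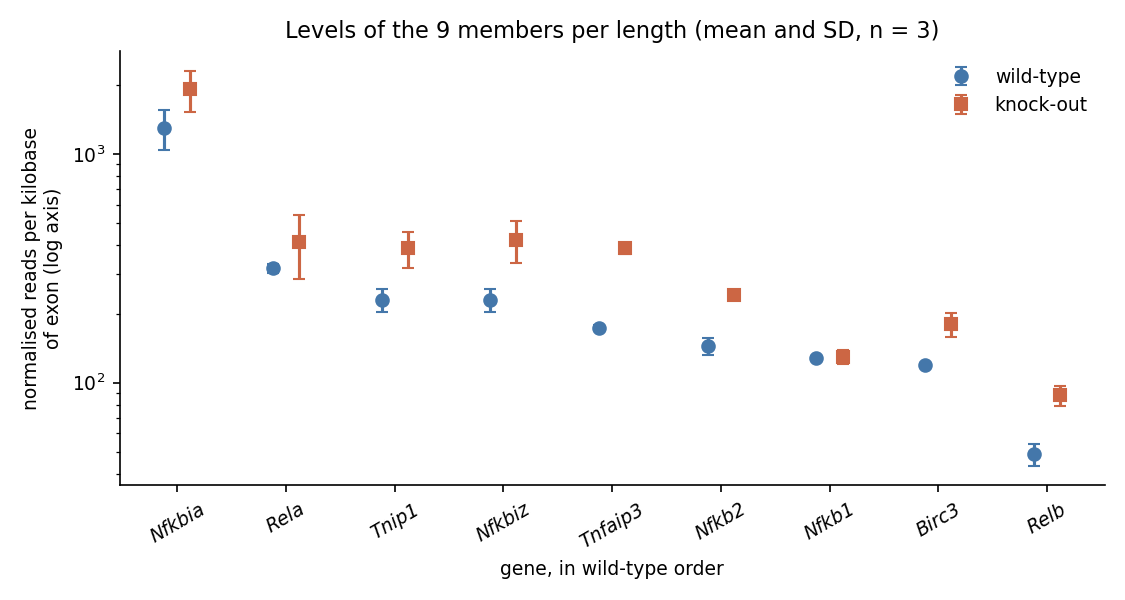
Normalised reads per kilobase of annotated exon (y, log axis) of the 9 genes in wild-type order (x), as mean and SD of 3 libraries per genotype. Nfkbia is the highest and Relb the lowest in both groups, and Tnfaip3 moves from 174 to 387.

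The rest of the pathway was described from 9 lists holding 115 tested genes, none of them a member, of which 25 rose and 1 fell. Of all genes tested, 3.6% rose and 2.64% fell, and 12.8% lay apart with the knock-out higher and 12.8% with it lower. The counts of each list below stand beside these shares. The number called was 13 to 17 when any 1 of wild-type 1, 2 and 3 and knock-out 1 and 2 was left out, and 32 when knock-out 3 was. Genes that carry the signal had few calls. Of 20 adaptors and ubiquitin ligases only Bcl10 rose, an adaptor downstream of thrombin and antigen receptors, from 479 ± 8.85 to 652 ± 34.9 (1.36-fold). This call was lost in all 6 fits leaving out 1 library (highest adjusted p = 0.162, without wild-type 2). It was also lost with the replicate block (0.0836) and adjusting for the Y-linked level (0.12). The list had a median log2 change of 0.12, 6 of its genes lay apart with the knock-out higher and none lower, and Traf5 and Irak2 had folds of 1.50 and 1.44 that were not called. Of 12 kinases, Map3k8, which encodes the kinase Tpl2 that is held by p105, rose from 418 ± 37.2 to 766 ± 118 (1.82-fold, adjusted p = 0.0102, or 0.0502 without wild-type 1). The list had a median of 0.10, 4 of its genes lay apart with the knock-out higher and none lower, and Ikbke and Map3k14, the gene of NIK, had folds of 2.17 and 1.60 that were not called.

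Among 12 receptors, 3 rose, none fell and the median log2 change was 0.07. In this list 4 genes lay apart with the knock-out higher and 2 with it lower. Tnfrsf12a, the receptor of the cytokine TWEAK and an activator of the non-canonical route, rose from 99.2 ± 2.67 to 276 ± 77.9 normalised reads (2.69-fold, 1.94 to 3.74). Tlr4, the receptor of bacterial lipopolysaccharide, rose 2.16-fold (1.59 to 2.93), and Tnfrsf11a, which encodes RANK, rose 2.55-fold from a low level of 24.2 ± 3.65. Leaving out wild-type 1, 2 or 3 gave adjusted p = 0.0622, 0.0584 and 0.0509 for Tlr4 and 0.067, 0.0603 and 0.0626 for Tnfrsf11a, which also missed the limit when knock-out 2 was left out (0.0688). Of 11 ligands looked for, 4 were tested, all of them low, and Tnf rose from 23.7 ± 6.65 to 71.8 ± 27.5 (2.89-fold, 1.66 to 5.03, adjusted p = 0.0397). Tnf was called only without knock-out 3 among the fits leaving out 1 library, and its adjusted p was 0.0699, 0.144, 0.124, 0.0809 and 0.118 when wild-type 1, 2 or 3 or knock-out 1 or 2 was left out. Adjusting for the Y-linked level gave adjusted p = 0.054 for Tnf and 0.0561 for Tnfrsf11a. Il1b and Il33 had folds of 2.19 and 0.68 that were not called. Among the 4 ligands, 2 lay apart with the knock-out higher and none lower. Beside Tnf, a cytokine made mostly by leukocytes, the leukocyte gene Ptprc was at 37.4 to 72.0 in the wild-type and 80.2 to 154 in the knock-out, and Lyz2 at 16.3 to 43.8 and 54.2 to 103. Neither was called, and their part in the result was not tested.

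Of the other IkappaB proteins and subunits, Nfkbie rose and 4 of 5 were not called, with a median log2 change of 0.72. Among the 5, 2 lay apart with the knock-out higher and none lower. Nfkbie, which encodes IkappaB epsilon, had 142, 119 and 121 normalised reads in the wild-type and 227, 267 and 288 in the knock-out (2.04-fold, 1.59 to 2.61, adjusted p = 0.00798, or 0.054 without wild-type 2). Rel, the subunit c-Rel, had a fold of 1.78 (adjusted p = 0.0768, or 0.0394 without wild-type 3), and Bcl3, a nuclear partner of p50 and p52, a fold of 1.65 (0.192, or 0.0254 without knock-out 3). Of 16 other brakes, 3 rose, none fell and the median was 0.04. Among these, 5 lay apart with the knock-out higher and none lower. N4bp1, an inhibitor of NF-kappaB activation in mice, rose 1.51-fold. Tnip2, which encodes ABIN2, a partner of A20 and Tpl2, rose 1.53-fold, and Irak3, which blocks signals of Toll-like receptors, rose 1.89-fold from 54.1 ± 9.43. Each of these 3 calls was lost in 5 of 6 fits leaving out 1 library. The exception was the fit without knock-out 3 for N4bp1 (adjusted p = 0.00917) and Irak3 (0.0376) and for Tnip2 (0.0444), and the highest adjusted p was 0.125, 0.208 and 0.128, without wild-type 2. With the replicate block, Tnip2 and Irak3 had adjusted p of 0.0662 and 0.0915. Adjusting for the Y-linked level, N4bp1, Tnip2 and Irak3 had 0.084, 0.0936 and 0.127.

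Known targets of NF-kappaB held most of the rises. Of 10 tested adhesion molecules and cytokines, 7 rose and none fell, with a median log2 change of 1.13, and another 10 of the 20 listed are not in the table analysed here. Among those tested, 7 lay apart with the knock-out higher and 1 with it lower. Sele, Vcam1 and Icam1 had the smallest p (folds of 25.1, 3.64 and 2.03). Of 21 tested targets with roles in survival and other processes, 7 rose and 1 fell, with a median of 0.42. In this list 9 genes lay apart with the knock-out higher and 2 with it lower. Traf1, which binds TNF receptors together with cIAP proteins, rose from 15.1 ± 5.58 to 81.7 ± 19.1 (5.24-fold, 3.14 to 8.76). Bcl2l1, which encodes the survival protein Bcl-xL, rose 1.67-fold (1.40 to 1.99, adjusted p = 0.0538 without wild-type 2). The gene that fell, named after its value was seen, was Cd83, a surface protein of activated antigen-presenting cells, with 355, 320 and 395 reads in the wild-type and 125, 153 and 202 in the knock-out (fold 0.44, adjusted p = 0.0109, or 0.05 without wild-type 3).

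**Figure D4:**
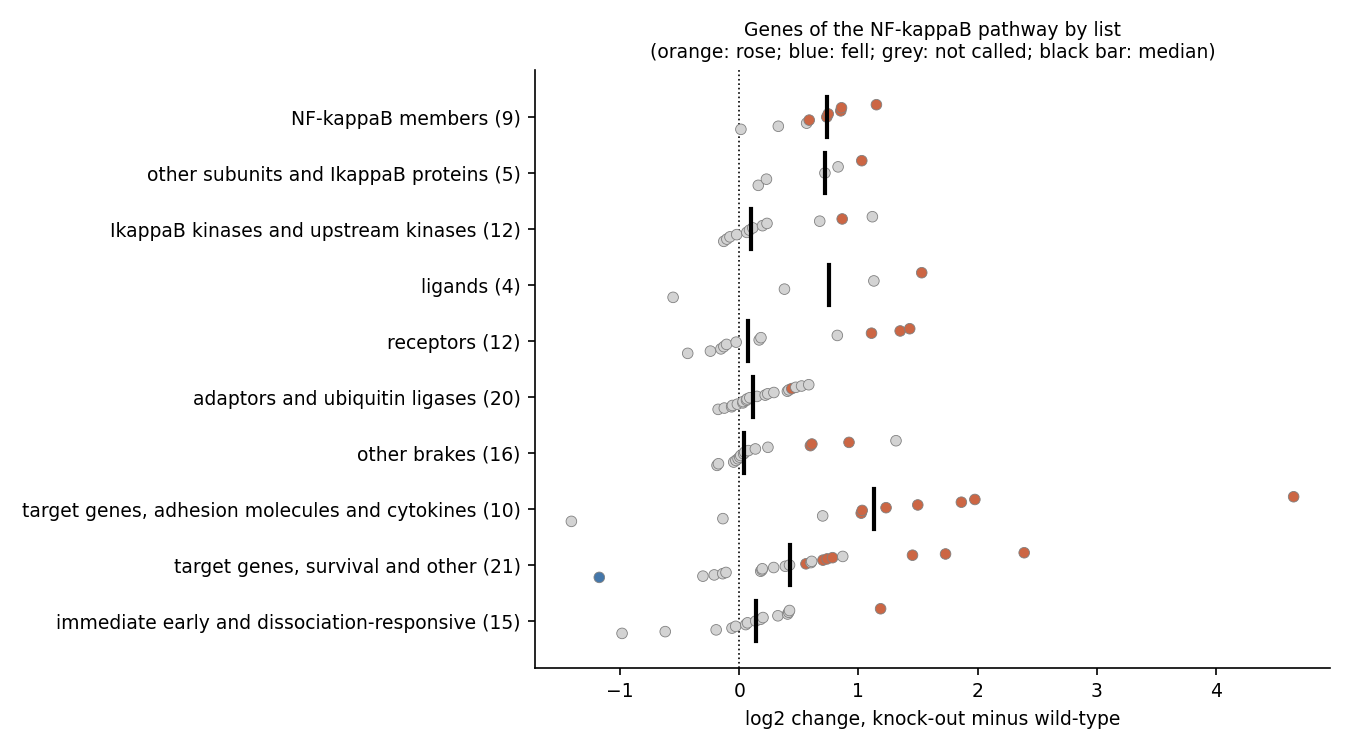
Log2 change of each tested gene, knock-out minus wild-type (x), for the 9 members and 9 lists of pathway genes (y, number tested in brackets), with the median of each list as a black bar. Medians of the adaptor, kinase, receptor and brake lists lie between 0.04 and 0.12, and those of the members and of the adhesion and cytokine targets at 0.73 and 1.13.

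Several members, above all Nfkbia and Nfkbiz, are also known to be induced when tissue is dissociated, as are immediate early genes. Of 15 tested immediate early and stress genes, Atf3 rose 2.28-fold (1.83 to 2.83), none fell and 14 were not called, with a median log2 change of 0.14. Among these, 3 lay apart with the knock-out higher and none lower. The summed level of the list was 48239 to 62732 in the wild-type and 57929 to 66305 in the knock-out, so the groups overlapped. Socs3 and Dusp1 had folds of 1.34 and 1.33 that were called without knock-out 3 (adjusted p = 0.0234 and 0.0364) but not with all libraries. The part of dissociation in the levels of the members was not tested.

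Markers of other cells were compared because leukocytes and glia express the members too, and fewer cells of a type cannot be told apart from less RNA per cell in bulk samples. Of 17 markers of microglia and macrophages, 14 were in the table and 10 tested, and none was called. Their summed level was 1197 to 1271 in the wild-type and 1177 to 1309 in the knock-out, about the level of 1 member. The microglial markers Tmem119 and C1qa were at 2.97 to 7.22 and at 0 to 13.3 in all libraries. Of 11 markers of lymphocytes and neutrophils 1 was in the table, Cd79a at 11.1 to 18.3. Platelet markers were in the table for 3 of 6 genes and summed to 82.4 to 92.8 in the wild-type and 111 to 320.1 in the knock-out, and 1 of them rose, Tubb1 (7.91-fold, 2.80 to 22.4). Tubb1 missed the limit when wild-type 1, 2 or 3 or knock-out 2 or 3 was left out (adjusted p = 0.0925, 0.14, 0.0879, 0.122 and 0.0794). Its adjusted p was 0.0616 when the fit was adjusted for the Y-linked level. Pericyte markers (9 of 9) summed to 41877 to 82794 and 42900.0 to 56711, and none was called. Astrocyte markers (6 of 6) summed to 5340 to 6319 and 3033 to 3489. Gja1 was the largest part of that sum, at 3578 to 4125 in the wild-type and 2095 to 2190 in the knock-out, and fell (fold 0.57). The other 5 had folds below 1 and none was called. Of the 6, only Gja1 and 1 other lay apart between the groups. Oligodendrocyte markers (7 of 7) summed to 2219, 1924 and 8453 in the wild-type libraries and 2588, 1272 and 4037 in the knock-out libraries, highest in wild-type 3. Neuron markers (6 of 9) summed to 929, 925 and 878 in the wild-type and 407, 471 and 1388 in the knock-out, highest in knock-out 3, the library in which Rela was low. None of the genes of these 2 lists was called. Apart from the values given here, their part in the levels of the 9 genes was not tested.

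Over the 6 libraries, the genes whose log2 levels were most like those of Tnfaip3 were Stx11, a syntaxin of secretion, with Pearson r = 0.999, Sele (0.999) and Vcam1 (0.998). Stx11 rose from 19.6 ± 1.76 to 116 ± 13.1 normalised reads (5.65-fold, 3.99 to 8.01). For Nfkbia they were Tgfb1 (r = 0.994), Ptk7 (0.989) and Rbm38 (0.988), none of which was called, though Tgfb1 was with the replicate block (adjusted p = 0.0448). These r describe 6 points in 2 groups that share their libraries, and 333 genes had r above 0.95 to Tnfaip3 and 78 to Nfkbia, so that the order among them carries little information. Among the members, Nfkb2 and Relb were the most alike (r = 0.990) and Nfkb1 and Birc3 the least (r = 0.05).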

How the data were processed

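RNA-seq was deposited for 6 libraries, 3 per genotype, grouped by their titles. Per the submitters' processing notes, Trim Galore, STAR 2.5.3a, the GRCm38 build and DESeq2 were used. The read counter, annotation and strand setting were not given in the sources used here. The deposited table gives a normalised signal per gene, and 100% of the values of a library were whole multiples of 1 step (tolerance 0.01 of a read), as counts divided by 1 size factor are. The whole reads recovered from it served edgeR 4.0.16 and DESeq2 1.42.0 as alternatives, which called 897 and 1373 genes. The main test was limma 3.58.1 in R 4.3.3 (mean-variance trend, two-sided) on log2(value + 1) of 14076 genes with at least 10 in at least 3 libraries, with Benjamini-Hochberg adjustment over all of them and a limit of 0.05. "Rose" and "fell" mean past this limit. Folds on this scale understate changes of low genes, and intervals are at 95%. The fits across genes were tested on simulated data.

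The members, the lists and the tests were chosen with earlier results of these data known. The named genes are the members, up to 3 genes with the smallest p of each list, Pdcd10, and the 3 genes most like Tnfaip3 and Nfkbia. A gene that the rule names is not reported here. Birc2, Xist, Cd83, Psd, Ptprc, Lyz2, Gja1, Tubb1, Ltbr, Il17ra, Zc3h12a, Madcam1, Pecam1, Cldn5, Flt1, Kdr and Erg were added after their values were seen. Genome positions come from GENCODE M21 (GRCm38). Replicates of a group differed far beyond sampling noise (chi-square per degree of freedom 14.1 to 58.4), so none was a copy. The block fit, run as an alternative, took the replicate numbers to pair the libraries. Deviations from the group means correlated weakly between libraries of the same number (r = 0.101, 0.11 and 0.192 for numbers 1, 2 and 3). Other pairs had r of similar size or higher: wild-type 1 with knock-out 2 (0.295), wild-type 2 with knock-out 3 (0.191) and wild-type 3 with knock-out 1 (0.109). The remaining pairs had r of -0.271, -0.341 and -0.381. Neither the labels nor these r establish the pairing by number. The intervals and the spread cover 3 libraries per group.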

Additional observations from a re-analysis of the deposited data

How the results depend on the processing

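With all 6 libraries the members risen, the genes changed and the pathway list genes called numbered 6, 879 and 26. Without a mean-variance trend they were 3, 495 and 17, adjusting for the Y-linked level 4, 457 and 16, and with DESeq2 7, 1373 and 35. Leaving out 1 library gave 2 to 6 members, 283 to 1032 genes and 13 to 32 list genes. The lowest counts came without knock-out 2 for the members and without wild-type 2 for all genes. Every fit leaving out 1 library has fewer libraries, yet without knock-out 3 the counts were 6, 1032 and 32. Why the counts differed was not tested. With the replicate block the counts were 7, 769 and 24. Of the named genes, the block changed the calls of Nfkbia, Bcl10, Tnip2, Irak3, Tgfb1 and Zc3h12a, given with those genes, and no other. Xist, Psd and the endothelial and microglial markers are not part of this statement. Other pseudocounts, filters, scalings and array weights left the members risen at 6. No named gene that passed the test with all libraries turned its direction in the alternatives run, 19 a gene and 18 for Tnf and Tubb1. Low genes, such as Tnf and Traf1, had fewer reads than the members. Tnf was called in 10 of its 18 alternatives and Traf1 in 19 of 19. The part of depth in these calls was not tested.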

Other observations

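Of the 89 tested list genes that were not called, 17 lay apart with the knock-out higher and 4 with it lower. Among all genes tested, a wider set that includes the called genes, 12.8% lay apart higher and 12.8% lower. The 4 described here were picked, after their values were seen, from the 21 uncalled list genes that lay apart. Ltbr, the lymphotoxin receptor that feeds the non-canonical route, had 696, 702 and 665 normalised reads in the wild-type libraries and 538, 647 and 564 in the knock-out libraries (fold 0.85, 95% interval 0.71 to 1.00, adjusted p = 0.269). It was lower in 3 of 3 knock-out libraries, while Nfkb2 and Relb of the same route rose. Zc3h12a, which encodes the RNase Regnase-1 that degrades cytokine transcripts, had 32.7, 38.0 and 21.7 in the wild-type and 102, 82.9 and 52.2 in the knock-out (fold 2.49, 1.48 to 4.19, adjusted p = 0.0551, or 0.0255 without knock-out 3 and 0.0279 with the replicate block). Il17ra, a receptor of interleukin-17, went from 74.6 ± 22.8 to 129 ± 3.18 (SD, n = 3, fold 1.77, adjusted p = 0.0848, or 0.0486 without wild-type 1 and 0.0476 adjusting for the Y-linked level). Madcam1, an adhesion molecule for lymphocytes, went the other way, from 105 ± 21.1 to 41.1 ± 17.0 (fold 0.38, 0.21 to 0.66, adjusted p = 0.0588, or 0.0416 without knock-out 3).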
